A study of Homo sapiens with 7 samples.

Results

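Expression of the insulin-like growth factor (IGF) binding proteins, the ligand IGF2 and the receptors IGF1R and IGF2R was described in clones of Panc1 cells. Panc1 is an established line from a human pancreatic tumour. The 10 genes were chosen by name as a family, after IGFBPL1 had been seen among the genes with the largest difference between S100P-labelled and vector clones on these same arrays. For that reason the values of that contrast are given below as a description, and nothing is inferred from them. Probe sets annotated to one of these symbols alone numbered 23 of 54613 on the array, for 9 of the 10 genes. IGF2 had none, because the 3 probe sets that carry its symbol carry a second symbol too. IGFBP5 had 6 probe sets, IGF1R 5, IGFBP7 and IGF2R 3 each, IGFBP3 2, and IGFBPL1, IGFBP2, IGFBP4 and IGFBP6 had 1 each. The genes IGF1 and IGFBP1 were not among the 10 and are given with the pathway genes below.

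The IGF ligands signal through the receptor tyrosine kinase IGF1R, while IGF2R, the cation-independent mannose 6-phosphate receptor, binds IGF2 and carries it to lysosomes without a kinase of its own. The classical binding proteins hold the ligands in the extracellular fluid with high affinity, and proteases such as pappalysin release the ligand again. IGFBP7 binds IGFs weakly, and IGFBPL1 is a secreted relative that carries an IGFBP-type domain.

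The arrays were Affymetrix expression arrays of total RNA from cells grown to near confluence in medium with serum. Clones labelled S100P overexpressing had received a plasmid encoding V5-His-tagged S100P, a small calcium-binding protein, and gave 4 arrays, a and b of clone 5 and a and b of clone 1. Vector clones had received the same plasmid without S100P and gave 3 arrays, 1 of clone V1 and a and b of clone V3. All had been grown from single cells, so each arm stands on 2 clones, and nothing in the labels ties arrays a and b to separate cultures. The p-values therefore cover the spread among these clones and arrays alone, part of which may be technical.

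Values are log2 numbers, 1 unit being a doubling, and array medians lay between 4.51 and 4.59. Arrays of a clone correlated at 0.996 to 0.998, and V1 correlated with the others at 0.982 to 0.990. S100P itself overlapped between the arms (5.36 to 5.95 in S100P-labelled arrays, 4.65 to 6.01 in vector arrays), so the arms are named as labelled. All 6 epithelial and ductal markers, among them KRT19 and EPCAM, lay above the array median on every array. KRT7 was lower on every S100P-labelled array than on every vector array (log2 difference -0.87, limma adjusted p = 0.0667). SOX9 was higher on every one (0.91, adjusted p = 0.0549), while KRT8, KRT18, KRT19 and EPCAM overlapped between the arms. Of 23 markers of acinar, endocrine, fibroblast, leukocyte, endothelial and liver cells, 15 lay below the median on all 7 arrays. Among these were the leukocyte gene PTPRC and the endothelial gene CDH5. The fibroblast gene COL1A1, the endothelial gene PECAM1 and the liver gene APOA1 lay above the median on all 7. No marker of any list was called between the arms, a call being a limma adjusted p under 0.05.

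IGFBPL1 separated the arms most widely. Clone 5 read 7.57 and 7.44 and clone 1 read 7.58 and 7.48, against 4.56 on V1 and 4.90 and 5.02 on V3. The 4 S100P-labelled arrays lay close together, while the vector arrays lay near the array median, where a value may be mostly background. The arms averaged 7.52 ± 0.07 (SD, n = 4) in S100P-labelled clones and 4.83 ± 0.24 (SD, n = 3) in vector clones, a fitted log2 difference of 2.71 (SE 0.13), or 6.55-fold. Because the vector level is dim, the size of that fold is uncertain. The gene lies on chromosome 9 at 38406528 to 38424454 (GRCh38.p14).

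**Figure D1:**
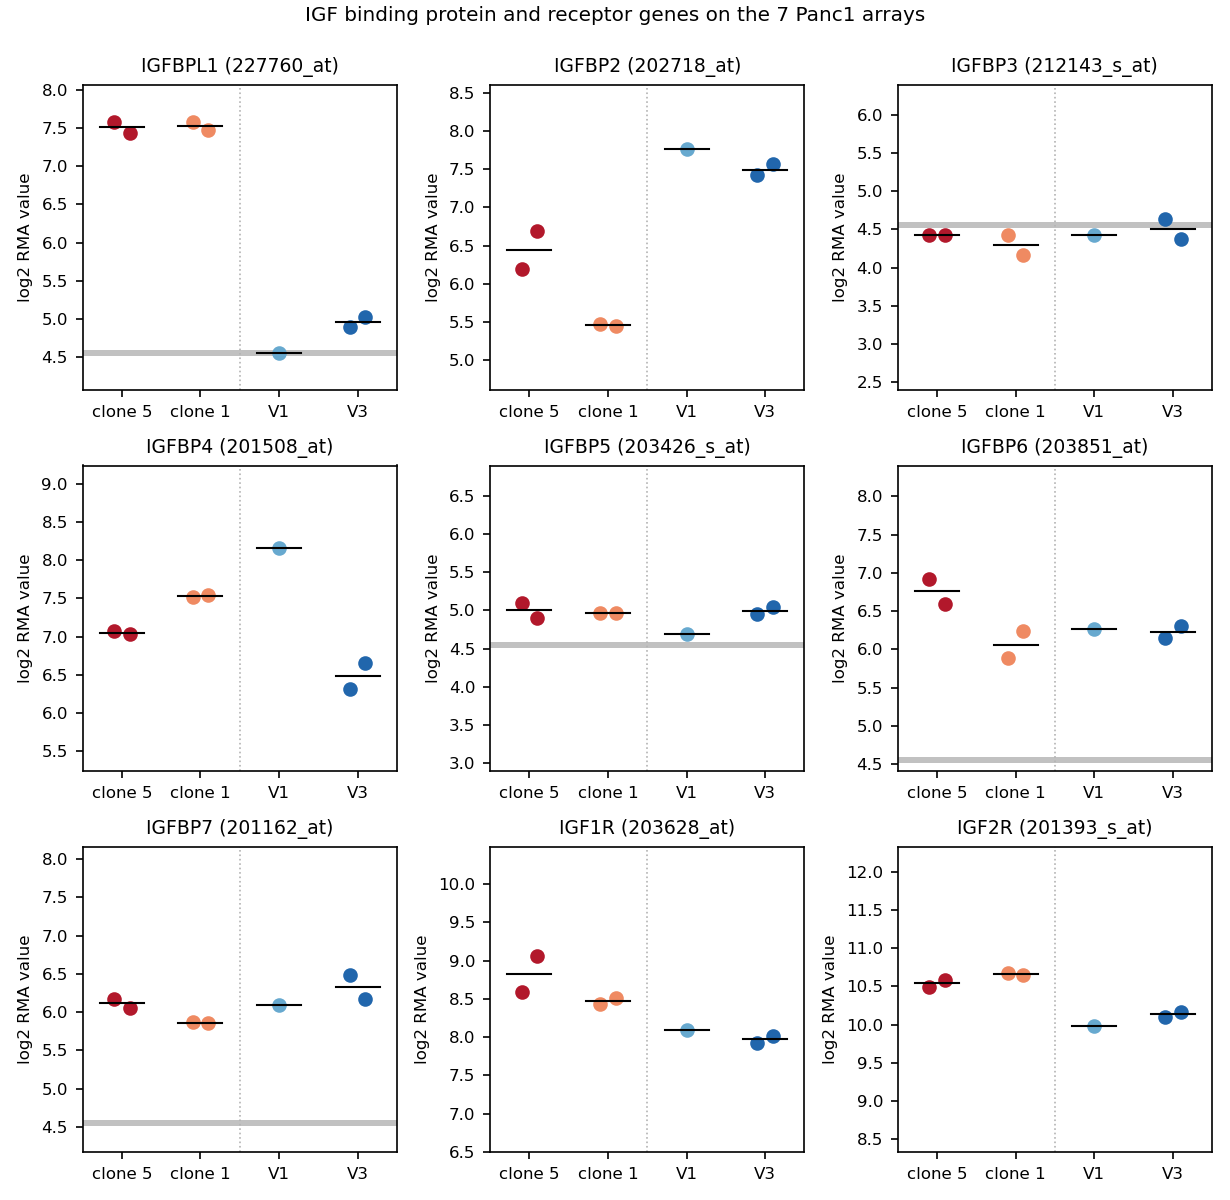
Log2 RMA value (y axis, each panel spanning 4 units) of the brightest probe set of each gene on each array (points), by clone (x axis). Horizontal lines are clone means, the grey band is the range of array medians, and the dotted line divides S100P-labelled clones (left) from vector clones (right). IGFBPL1 was higher on all 4 S100P-labelled arrays, IGFBP2 was lower on them and lowest in clone 1, and IGFBP4 was highest on V1.

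IGFBP2, a binding protein with high affinity for IGF2, was the member that read lowest in S100P-labelled clones relative to vector clones. It read 6.19 and 6.69 on clone 5 and 5.48 and 5.45 on clone 1, against 7.76 on V1 and 7.42 and 7.56 on V3. Every S100P-labelled array lay below every vector array, and clone 1 lay below clone 5. The means were 5.95 ± 0.60 (SD, n = 4) in S100P-labelled clones and 7.58 ± 0.17 (SD, n = 3) in vector clones, with a fitted log2 difference of -1.64 (SE 0.30), or 3.12-fold lower. Clone 5 was 2.27-fold and clone 1 4.47-fold below the vector clones' mean.

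IGF2R was higher in the S100P-labelled clones at both of its brighter probe sets. At 201393_s_at it read 10.50 and 10.58 on clone 5 and 10.67 and 10.65 on clone 1, against 9.99 on V1 and 10.10 and 10.17 on V3. At 201392_s_at the values were 9.32 and 9.33 on clone 5 and 8.97 and 9.11 on clone 1, against 8.49 on V1 and 8.59 and 8.32 on V3. The arms did not overlap at either, with fitted log2 differences of 0.53 (SE 0.09) and 0.72 (SE 0.13), or 1.44-fold and 1.64-fold. The remaining probe set, 1569052_at, did not follow them: it read 5.31 to 5.51 in S100P-labelled arrays and 5.45 to 5.62 in vector arrays.

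IGF1R, the signalling receptor, had positive log2 differences at 4 of 5 probe sets. The brightest, 203628_at, read 8.59 and 9.06 on clone 5 and 8.43 and 8.51 on clone 1, against 8.10 on V1 and 7.92 and 8.02 on V3 (log2 difference 0.63, SE 0.17). At 203627_at the values were 8.32 and 8.62 on clone 5 and 8.49 and 8.48 on clone 1, against 8.11 on V1 and 7.94 and 8.11 on V3 (0.42, SE 0.11). The arms did not overlap at these probe sets, and overlapped at the other three. There the log2 differences were 0.35 at 225330_at, -0.22 at 243358_at and 0.14 at 208441_at, the last below the median on all 7 arrays.

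**Figure D2:**
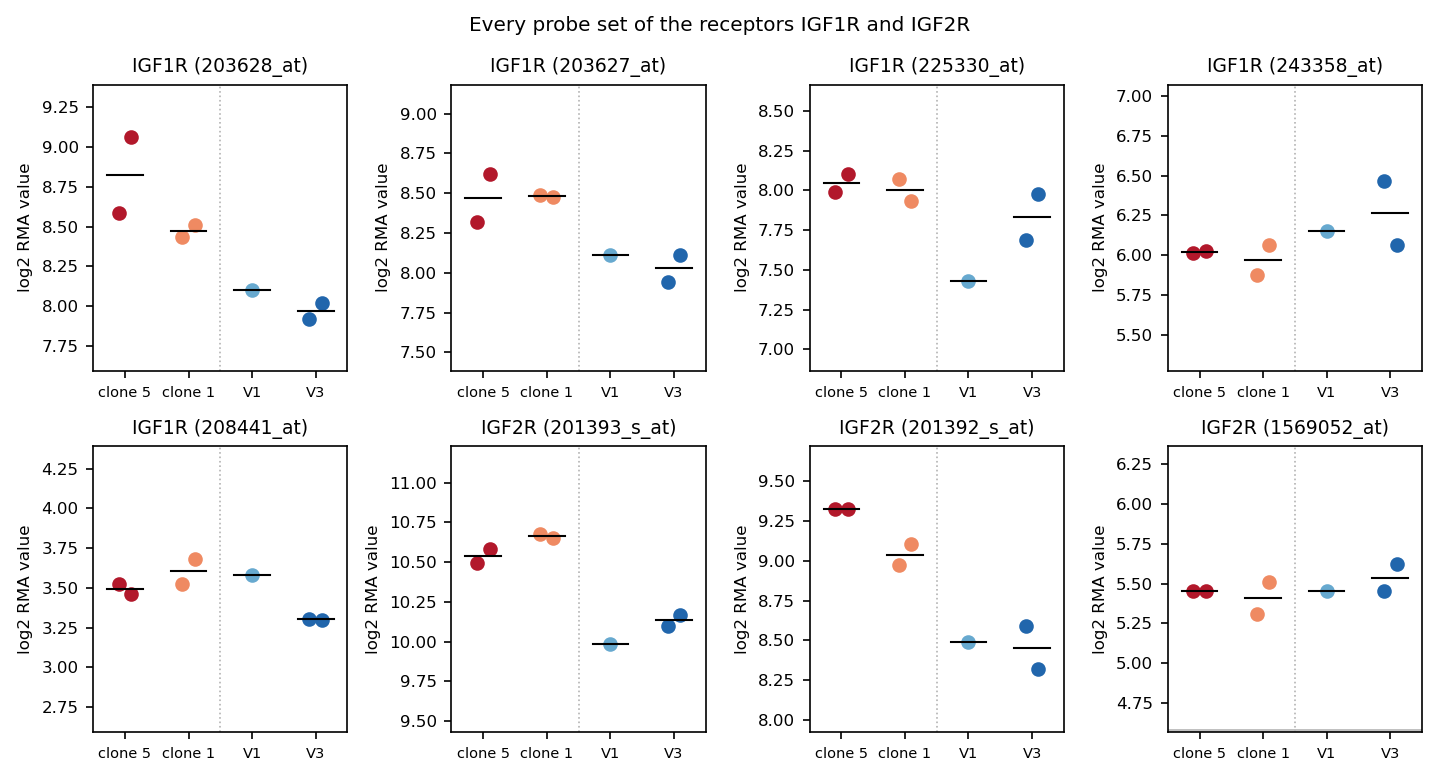
Log2 RMA value (y axis, each panel spanning 1.8 units) of every probe set of IGF1R and IGF2R on each array (points), by clone (x axis), with clone means as lines and S100P-labelled clones left of the dotted line. The arms stood apart at 203628_at and 203627_at of IGF1R and at 201393_s_at and 201392_s_at of IGF2R, and overlapped at the other 4 probe sets.

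At a limma adjusted p under 0.05 over all probe sets, 4 of the 23 passed between the arms, where 1.12% of all passed. Of these probe sets 3 were higher (IGFBPL1 and IGF2R at 2 probe sets) and 1 was lower (IGFBP2). IGF2R (limma adjusted p = 0.0398 and 0.0447) and IGFBP2 (0.0453) lay just under the threshold. By gene, 3 of 9 brightest probe sets passed, where 1.55% of 19775 genes did. All S100P-labelled arrays lay on one side of all vector arrays at 7 of the 23, 5 higher and 2 lower, where 11.4% of all probe sets did so. The lower ones were IGFBP2 and IGFBP3 at 210095_s_at. Each of these counts holds IGFBPL1, whose difference between the arms led to the choice of the family. The counts are therefore a description and are not evidence about the family. The median log2 difference was -0.03 over the 23 and -0.00 over all probe sets. With arrays of a clone averaged first, 2 clones against 2, none of the 23 passed in limma, and 6 had an unadjusted p under 0.05. IGFBPL1 then differed by 2.76. With single arrays left out, 1 to 4 of the 23 were called, and these were not always the same ones. Without V1, IGFBP7 was called at the dim probe set 201163_s_at (log2 difference -0.89, limma adjusted p = 0.0232). IGFBP2 was then not called (-1.54, limma adjusted p = 0.0728), and it stayed called only without array b of clone 5. Without both arrays of V3, which left V1 alone in the vector arm, IGFBPL1 differed by 2.96.

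IGFBP4, IGFBP6 and IGFBP7 overlapped between the arms. IGFBP4, which inhibits IGF action in most settings, averaged 7.29 ± 0.28 (SD, n = 4) in S100P-labelled clones and 7.04 ± 0.98 (SD, n = 3) in vector clones. IGFBP6, which prefers IGF2 as a ligand, averaged 6.41 ± 0.45 (SD, n = 4) in S100P-labelled clones and 6.24 ± 0.08 (SD, n = 3) in vector clones. IGFBP7 at its brightest probe set averaged 5.99 ± 0.15 (SD, n = 4) in S100P-labelled clones and 6.25 ± 0.20 (SD, n = 3) in vector clones. For IGFBP4, IGFBP6 and IGFBP7 the fitted arm difference (0.15, 0.17 and -0.25) was smaller in size than the widest difference between clones of 1 arm (1.67, 0.70 and 0.25).

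IGFBP3, the main carrier of IGFs in serum, and IGFBP5, which binds extracellular matrix, read near or below the array median throughout. IGFBP3 spanned 4.16 to 4.63 at 212143_s_at and 4.14 to 4.64 at 210095_s_at. At the first of these it had the same deposited value, 4.42, on 4 of the 7 arrays, a value that 287 probe sets held on at least 1 array. IGFBP5 spanned 4.69 to 5.10 at its brightest probe set, and 3 of its 6 probe sets lay below the median on every array. IGFBP5 lies beside IGFBP2 on chromosome 2 (216672105 to 216695549, and 216632828 to 216664436, GRCh38.p14), and it was not called in any of the 3 comparisons. At these levels a difference in IGFBP3 or IGFBP5 may not have been detectable.

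**Figure D3:**
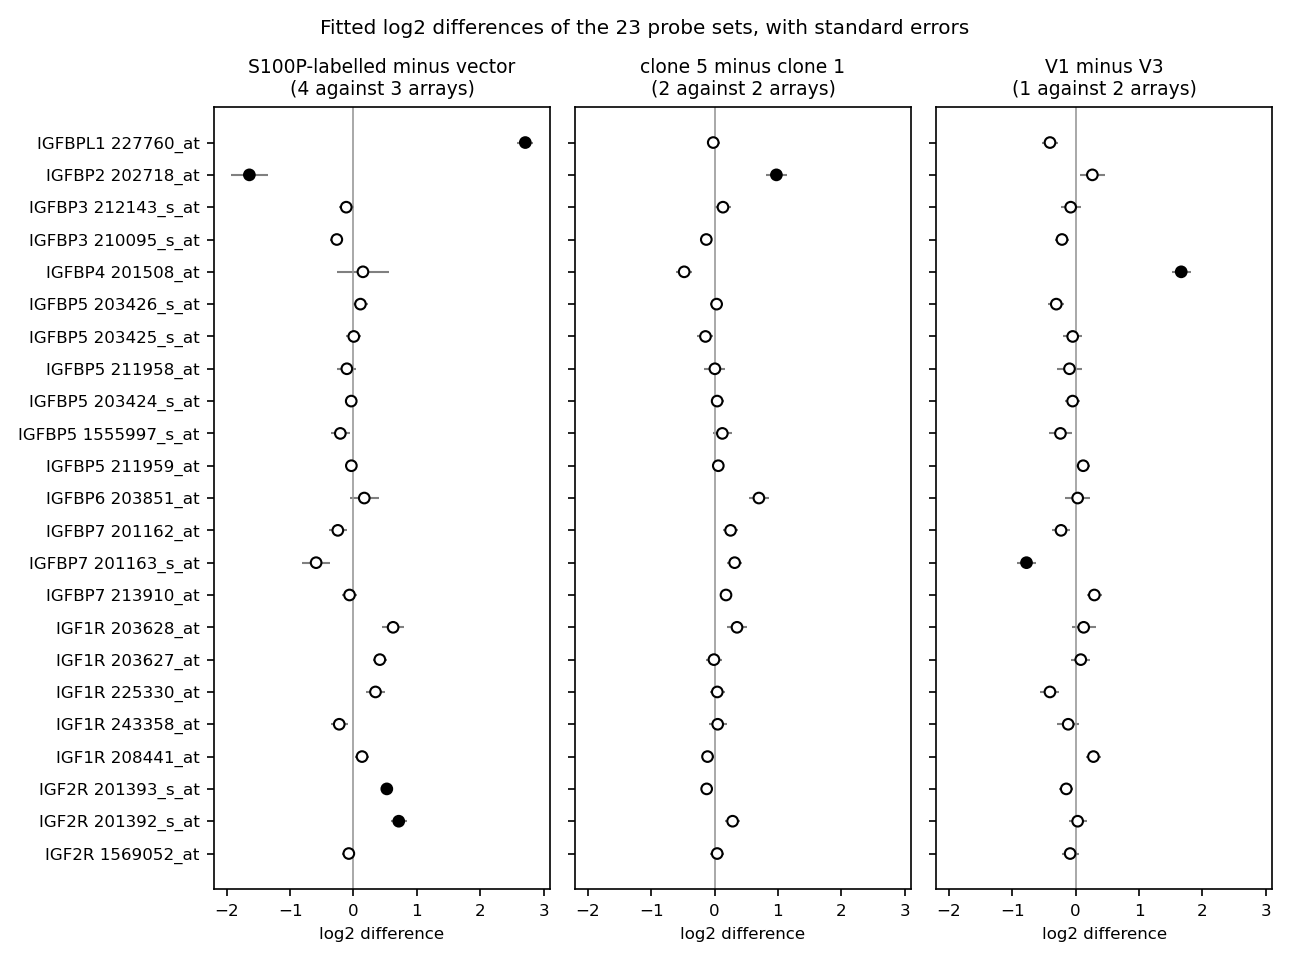
Fitted log2 difference (x axis) with its standard error (bars) for each of the 23 probe sets (y axis), in S100P-labelled minus vector arrays (left), clone 5 minus clone 1 (middle) and V1 minus V3 (right). Filled points had a limma adjusted p under 0.05 over all probe sets: IGFBPL1, IGFBP2 and 2 probe sets of IGF2R between the arms, IGFBP2 in the middle panel, and IGFBP4 and 1 probe set of IGFBP7 in the right panel.

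The promoters of the members called higher in the S100P-labelled clones, and for which RefSeq gives a single start, are shown for reference. Each line holds the 250 bases before the start, 5′ to 3′ on the gene's strand (GRCh38.p14), at chr9:38424455-38424704 on the minus strand for IGFBPL1 and chr6:159968832-159969081 on the plus strand for IGF2R. Capitals mark the GC box, GGGCGG or its reverse complement CCGCCC, which Sp-family factors can bind.
IGFBPL1: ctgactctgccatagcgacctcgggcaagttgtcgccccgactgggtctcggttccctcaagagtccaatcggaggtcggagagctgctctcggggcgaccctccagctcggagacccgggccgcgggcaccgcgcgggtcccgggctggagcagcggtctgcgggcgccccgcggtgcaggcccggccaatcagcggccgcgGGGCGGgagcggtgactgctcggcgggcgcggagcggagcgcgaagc
IGF2R: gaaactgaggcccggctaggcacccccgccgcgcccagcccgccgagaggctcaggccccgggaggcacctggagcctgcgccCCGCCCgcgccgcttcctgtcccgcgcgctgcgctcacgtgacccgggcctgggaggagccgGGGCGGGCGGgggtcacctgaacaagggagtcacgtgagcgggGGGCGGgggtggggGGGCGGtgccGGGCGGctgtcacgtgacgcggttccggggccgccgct
A GC box occurred once before IGFBPL1 and 6 times before IGF2R, overlaps counted, and in 42.3% of 27305 promoters of the same length. The windows held 35 and 33 CpG dinucleotides, where the median promoter held 11, and neither held the letters TATAAA or TTTATA, which 11.1% of promoters held. A CCAAT box (CCAAT or ATTGG) occurred in 2 places before IGFBPL1 and not before IGF2R, and in 33.0% of promoters. These are matches of letters and were not tested against expression.

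Genes whose values ran most like IGFBPL1 over the 7 arrays were ranked by Pearson's r among 1977 genes that spanned at least 1 log2 unit. The arrays fell into 2 groups by arm, so the coefficient mostly ranks genes by how cleanly the arms part. KLHL13, a substrate adaptor for cullin-type ubiquitin ligases, led with r = 0.9997, followed by the surface glycoprotein CD24 (0.9993), TMEM45A (0.998), SUSD5 (0.998), the heparan sulphate proteoglycan SDC2 (0.997) and the choline transporter SLC44A1 (0.995). All 6 were higher on every S100P-labelled array than on every vector array.

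The comparison of clone 5 with clone 1 was not used to choose the family and was tested within the S100P-labelled arm, with the spread between arrays of one clone as error. Only IGFBP2 differed among the 23 probe sets, where 2.19% of all probe sets did. It was 1.97-fold higher in clone 5 (6.19 and 6.69) than in clone 1 (5.48 and 5.45), with 2 arrays on each side, and the fitted log2 difference of 0.98 had an SE of 0.16 (limma adjusted p = 0.0320). The call was lost when any array of clones 5, 1 or V3 was left out, fits in which no probe set of the whole array passed and 3 to 6 of the 23 had an unadjusted p under 0.05, and the log2 difference stayed between 0.73 and 1.22. IGFBP6 read 6.92 and 6.60 on clone 5 and 5.88 and 6.24 on clone 1 (log2 difference 0.70, SE 0.16, adjusted p = 0.0807). IGFBP4 ran the other way, 7.07 and 7.03 on clone 5 and 7.51 and 7.55 on clone 1 (-0.48, SE 0.12, adjusted p = 0.113). With the dimmer probe sets left out before the adjustment IGFBP6 (limma adjusted p = 0.0223) and IGFBP4 (adjusted p = 0.0443) passed too.

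IGFBPL1 did not pass between clones 5 and 1, with a log2 difference of -0.02 (SE 0.10, limma adjusted p = 0.951). For IGF2R the brighter probe sets pointed in opposite directions, with log2 differences of -0.12 at 201393_s_at and 0.29 at 201392_s_at, neither of which passed.

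Clones 5 and 1 also differed in measures beside this family. The 3′ minus 5′ log2 difference of the ACTB control probe sets, a measure of RNA integrity, was 0.29 and 0.27 on clone 5 and 0.53 and 0.44 on clone 1, while that of GAPDH was 0.07 and 0.06 on clone 5 and 0.08 and 0.08 on clone 1. Of the 6 epithelial and ductal markers 3 were called higher in clone 5, namely KRT8, KRT18 and KRT19. KRT7 (log2 difference 0.27), EPCAM (-0.43) and SOX9 (-0.16) did not pass. The 6 log2 values summed to 63.6 and 63.7 on clone 5 against 60.7 and 61.0 on clone 1. The leukocyte list had 1 of its 4 measured markers called, CD14, which was higher in clone 5 (0.74, limma adjusted p = 0.0156), and its sums were 15.7 to 15.9 on clone 5 against 14.8 to 15.0 on clone 1. The part of these measures in the IGFBP2 difference was not tested.

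V1 and V3, both vector clones, differed at IGFBP4 and IGFBP7. IGFBP4 read 8.16 on V1 against 6.32 and 6.66 on V3, 3.18-fold higher by limma (log2 difference 1.67 with an SE of 0.15, adjusted p = 0.00277), from 1 array against 2. Both S100P-labelled clones lay between these levels, so the arm comparison of IGFBP4 turned on which vector clone was counted: the arm log2 difference was 0.80 without V1 and -0.86 without V3. IGFBP7 at 201163_s_at read 3.20 on V1 against 3.89 and 4.06 on V3 (log2 difference -0.78, SE 0.14, adjusted p = 0.0269), below the median on all 7 arrays. Its brightest probe set, 6.09 on V1 against 6.48 and 6.17 on V3, did not pass (-0.23, SE 0.15, adjusted p = 0.479). These 2 of 23 calls compare with 5.85% of all probe sets. Without an array of clone 5 the IGFBP4 call held (adjusted p = 0.0458) and that of IGFBP7 did not, and both were lost without any single array of clones 1 or V3, where no probe set of the array passed and 4 to 5 of the 23 had an unadjusted p under 0.05. Other measures differed between V1 and V3 too. S100P was lower in V1 (log2 difference -1.18, limma adjusted p = 0.0104), as were KRT8 (-0.74, adjusted p = 0.0482) and KRT19 (-0.61, adjusted p = 0.0322), 2 of the 6 epithelial and ductal markers, which summed to 63.1 on V1 against 64.5 and 65.6 on V3. KRT7 (-0.37), KRT18 (-0.37) and EPCAM (-0.40) did not pass, nor did SOX9, which was higher in V1 (0.54). The 3′ minus 5′ difference of ACTB was 0.18 on V1 against 0.28 and 0.32 on V3. Their part in the IGFBP4 and IGFBP7 differences was not tested. V1 is 1 array, whose label has a prefix of its own, so the clone and any separate handling cannot be told apart.

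IGFBPL1 read 4.56 on V1 against 4.90 and 5.02 on V3 and was not called (log2 difference -0.40, SE 0.12, limma adjusted p = 0.118). IGFBP2 was not called either (0.26, SE 0.20, adjusted p = 0.556).

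Ordered by clone means, IGFBPL1 ran from clone 1 (7.53) and clone 5 (7.51), which did not differ beyond their arrays, to V3 (4.96) and V1 (4.56). IGFBP2 ran from V1 (7.76) and V3 (7.49) to clone 5 (6.44) and clone 1 (5.47). Of the neighbours tested, clones 5 and 1 were called apart and V1 and V3 were not. IGFBP4 ran from V1 (8.16) through clone 1 (7.53) and clone 5 (7.05) to V3 (6.49), with both S100P-labelled clones between the vector clones.

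Other genes of the pathway were read from a list of 50, of which 44 were analysed here, and from 11 relatives that share the IGFBP-type domain. Between the arms, none of the 55 passed in limma, where 1.55% of all genes did, and 9 had an unadjusted p under 0.05. The median log2 difference was 0.02 over the 55 genes and -0.00 over all genes. The ligand gene IGF1 (0.03, SE 0.12), the insulin receptor gene INSR (-0.07, SE 0.23), the acid-labile subunit gene IGFALS (0.01, SE 0.10) and the liver binding protein gene IGFBP1 (0.03, SE 0.09) stood near zero, with INS and IGFBP1 below the median on every array. At its most variable probe set in place of its brightest, INSR had a log2 difference of 0.63 (adjusted p = 0.0441).

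HTRA1, a secreted serine protease that can cleave IGFBPs, showed the largest gap of the 55 between the arms without passing. It read 7.04 and 7.17 on clone 5 and 6.79 and 6.80 on clone 1, against 4.64 on V1 and 6.20 and 5.42 on V3. Every S100P-labelled array lay above every vector array, and the vector arrays were spread widely (log2 difference 1.60, SE 0.35, limma adjusted p = 0.0809). It passed when array a of V3, the array of V1 or both arrays of V3 were left out, with log2 differences of 1.92, 1.14 and 2.31.

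Between clones 5 and 1, 7 of the 55 passed, 1 higher and 6 lower in clone 5, where 3.02% of all genes passed. The domain relatives held 3 of them, all CCN family genes for matricellular proteins: CCN2 was 2.85-fold lower in clone 5 (-1.51 on the log2 scale with an SE of 0.09, limma adjusted p = 0.00115), CCN5 2.36-fold and CCN1 1.79-fold lower. CCN2 read 10.80 and 10.73 on clone 5 and 12.29 and 12.26 on clone 1, against which V1 (10.65) and V3 (11.01 and 11.12) lay with clone 5. CCN5 read 6.80 and 6.87 on clone 5 and 8.06 and 8.08 on clone 1, and here V1 (8.06) and V3 (8.25 and 8.49) lay with clone 1. The other domain relatives, CCN3, CCN4, CCN6, ESM1, KAZALD1, HTRA3, HTRA4 and CRIM1, did not pass in any of the 3 comparisons.

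Inside the signalling pathway, PIK3R1, the regulatory subunit of PI3-kinase, was 2.18-fold higher in clone 5 (7.11 and 6.98) than in clone 1 (5.93 and 5.91), with a limma adjusted p = 0.00651. STC2, an inhibitor of pappalysin proteases, was 1.91-fold lower in clone 5 (7.70 and 7.92) than in clone 1 (8.76 and 8.73). The feedback inhibitor gene SOCS3 was 1.86-fold lower and the transcription factor gene FOXO3, a target of AKT, 1.54-fold lower. All 7 calls were lost when any array of clones 5, 1 or V3 was left out, where no probe set passed. The RNA integrity and keratin values given above differ between these clones as well, and their part was not tested.

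**Figure D4:**
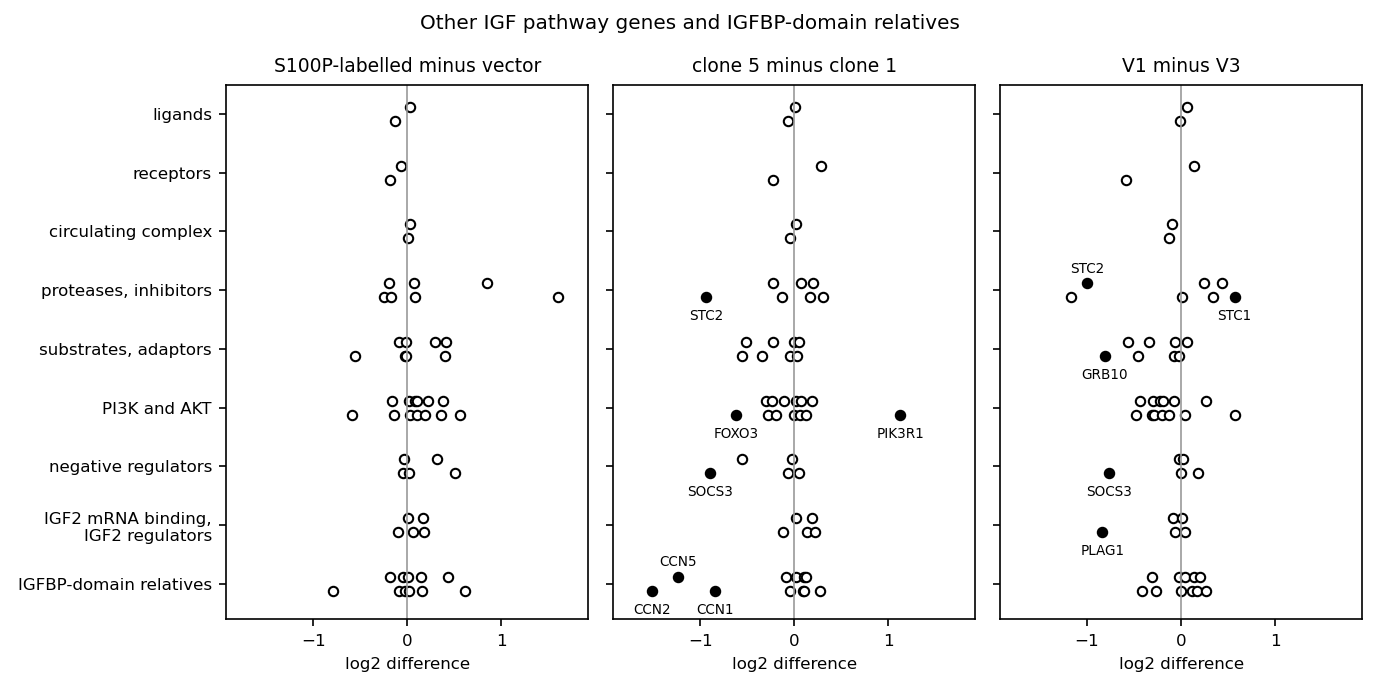
Fitted log2 difference (x axis) of each analysed gene at its brightest probe set, by role in the IGF pathway (y axis), in S100P-labelled minus vector arrays (left), clone 5 minus clone 1 (middle) and V1 minus V3 (right). Filled, named points had a limma adjusted p under 0.05 over all probe sets: 0 between the arms, 7 for clone 5 minus clone 1, and 5 for V1 minus V3.

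Between V1 and V3, 5 of the 55 passed, 1 higher and 4 lower in V1, where 7.72% of all genes passed. STC2 was lower in V1 (6.83) than in V3 (7.70 and 7.94, limma adjusted p = 0.0130). SOCS3 was 1.70-fold lower, GRB10, an adaptor that damps receptor signalling, 1.76-fold lower and PLAG1, a transcription factor that can activate IGF2, 1.79-fold lower. STC1, the relative of STC2 and likewise a pappalysin inhibitor, was 1.48-fold higher in V1, at a level below the median on all 7 arrays. No other gene of the lists passed in this comparison at its brightest probe set. Read at the most variable probe set instead, FOXO3 (log2 difference 0.91) and HMGA2 (1.14) passed too, and GRB10 did not pass. At the brightest probe set the log2 difference was -0.20 for FOXO3 and -0.07 for HMGA2. Without an array of clone 5 the count was 1, and without any single array of clones 1 or V3 it was 0 by limma, with 15 to 20 of the 55 at an unadjusted p under 0.05. The S100P, keratin and ACTB values given above differ between these clones as well, and their part was not tested.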

How the data were processed

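The submitters' processing notes name RMA for these arrays. The authors deposited 1 log2 value per probe set and array, read as log2 from their range. No source used here gives the software version or says whether all arrays were summarised together. Probe sets were named from the platform annotation: 41091 of 54613 carried 1 symbol, 1801 several and 11721 none, and 62 control probe sets were left out. The number of arrays limits the precision.

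Differences were fitted with limma 3.58.1 (R 4.3.3, statmod 1.5.0) over all probe sets and p-values adjusted by Benjamini and Hochberg, with 0.05 as the threshold. The arm comparison held the clone as a random block (correlation 0.287). The clone comparisons fitted 4 clones, with 3 residual degrees of freedom. A gene was read at its brightest probe set over the 7 arrays, and every probe set of the 10 genes was also given. The members and lists were chosen with earlier results of these data known. Named genes were the members, the listed pathway genes that passed in any comparison, HTRA1, which was singled out after its values were seen, and the 6 genes most like IGFBPL1. Also named, without a call at their brightest probe set, were IGF1, INSR, IGFALS, IGFBP1, INS, HMGA2 and the remaining domain relatives. S100P and cell type markers were named as well. The scripts were tested on simulated data. Alternatives were a renewed quantile normalization, leaving out dim probe sets, an intensity trend, other handling of the clone, other probe sets, and leaving out arrays or clones. Promoters were taken from RefSeq.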

Additional observations from a re-analysis of the deposited data

Results flagged for a closer look

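Within the 4 S100P-labelled arrays, 3 member probe sets had 1 array far from the others: IGFBP5 1555997_s_at at 2.55 on array a of clone 1 (the nearest other was 2.79), IGFBP5 211959_at at 2.64 on array a of clone 5 (nearest 2.53) and IGFBP3 212143_s_at at 4.16 on array b of clone 1 (nearest 4.42). All 3 are dim. At 1555997_s_at and 212143_s_at the other arrays of the arm all held the same deposited value, so any different value on the remaining array would have been marked. The rule marks about 1 in 20 groups by chance where values are not tied, and that rate does not apply to these 2 probe sets.

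The S100P-labelled clones differed from each other at 8 described genes. In log2 differences of clone 5 minus clone 1 these were IGFBP2 at 0.98, PIK3R1 at 1.13, STC2 at -0.94, FOXO3 at -0.62, SOCS3 at -0.89, CCN1 at -0.84, CCN2 at -1.51 and CCN5 at -1.24.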

How the results depend on the processing

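Of the 23 member probe sets, the arm comparison called 2 without dim probe sets, 0 with the arrays of a clone averaged (6 with an unadjusted limma p under 0.05), 1 without clone V3, and 1 to 4 when single arrays were left out. IGFBPL1 was called in 14 of 15 settings (2.55 to 2.96), IGFBP2 in 7 of 15 (-2.11 to -1.11) and IGF2R in 5 of 15 (0.44 to 0.62). Clone 5 minus clone 1 called 3 without dim probe sets, 0 with only those clones' arrays (6 unadjusted by limma), and 0 to 1 without single arrays. V1 minus V3 called 1 without dim probe sets, 0 with only those clones' arrays (3 unadjusted), and 0 to 1 without single arrays. Of the 55 pathway genes, the arm comparison called 1 without clone 1, 2 without clone 5, 1 without V3, 1 at the most variable probe set and 0 to 2 without single arrays. Clone 5 minus clone 1 called 0 with only those clones' arrays (19 unadjusted) and 0 to 7 without single arrays, and V1 minus V3 called 9 without dim probe sets, 0 with only those clones' arrays (12 unadjusted) and 0 to 1 without single arrays. V1 minus V3 has no value without V1. The setting without dim probe sets kept 14 of the 23 member probe sets and 44 of the 55 pathway genes. Its counts are out of those.

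Some signs turned. Other probe sets gave, for the arms, IGF2R -0.073, IGF1R -0.22 and IGFBP5 -0.21, -0.035, -0.10 and -0.033. The arm difference also turned to -0.18 for IGFBP6 without clone 5, to -0.0091 for IGFBP5 without V1, and for IGFBP4 to -0.12 without array a of V3, -0.031 with the arrays of a clone averaged and -0.86 without V3. For clone 5 minus clone 1, other probe sets gave IGF2R 0.042 and 0.29, IGF1R -0.0092 and -0.11, IGFBP3 -0.13 and IGFBP5 -0.14. For V1 minus V3 they gave IGF1R -0.40 and -0.12, IGF2R 0.032, IGFBP5 0.12 and IGFBP7 0.30. IGFBPL1 between clones 5 and 1 turned to 0.041 after quantile normalization, 0.029 without array a of clone 1 and 0.048 without array b of clone 5. IGFBP5 turned to -0.065 without array a of clone 5. Without array a of V3, V1 minus V3 turned to 0.048 for IGFBP3 and -0.049 for IGFBP6. The cause was not tested. No paired analysis was possible because the letters only number arrays within a clone. Dim probe sets limit what could be seen of IGFBP3 and IGFBP5.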

Other observations

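Of the 23 member probe sets, 9 (39.1%) held an identical deposited value on at least 2 arrays, where 56.2% of all probe sets did.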
